A study of Mus musculus with 3 samples.

Results

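The receptors for the Fc part of IgG, the Fc gamma receptors, were followed here together with the chain through which most of them signal. The group holds 5 genes of the 32285 in the count tables: the activating receptors Fcgr1, Fcgr3 and Fcgr4, the inhibitory receptor Fcgr2b, and Fcer1g, which encodes the FcR gamma chain. They were chosen by name, as the family of murine IgG receptors and their shared chain, and all 5 had UMIs in each of the 3 libraries.

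Fc gamma receptors let myeloid cells bind antibody-coated cells and immune complexes. The activating receptors have little signalling capacity of their own and pair with the FcR gamma chain, whose tyrosine-based activation motif (ITAM) is phosphorylated by Src family kinases and then recruits Syk. Fcgr2b carries an inhibitory motif (ITIM) in its own tail that recruits the phosphatase SHIP1 and dampens the same signal, so the ratio of activating to inhibitory receptors on a cell is used to describe how readily it responds to IgG.

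PB leukocytes were profiled by scRNA-seq in 1 library from naive mice and in 1 library each at D11, intermediate disease, and D14, late disease, after transplantation of BBC2 SCLL cells. BBC2 is a line made from leukemia driven by the BCR-FGFR1 chimeric kinase, with a pro-B-cell-like phenotype, and all recipients and controls were wild type Balb/C mice. Red blood cells were lysed and dead cells removed before loading, no sort of the leukemic cells is described, and the number of mice behind each library is not given in the sources used here. With 1 library per condition no test was possible, and every difference between naive, D11 and D14 below is a difference between libraries, given with an interval for counting error only.

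Kept barcodes had 200 genes or more and no more than 10% of their UMIs from mitochondrial genes. There were 3811 in naive, 4567 in D11 and 4414 in D14, with medians of 6031, 6389 and 6781 UMIs. Each was given a class by the number of markers found from fixed lists, and the suffix "-like" marks a class named in this way. The classes used most held 137, 211 and 639 ncMono-like, 160, 264 and 122 cMono-like, and 1337, 1620 and 1287 neutrophil-like cells in naive, D11 and D14. None of the 5 genes served as a marker. All 10 ncMono markers and all 8 cMono markers had UMIs in their own class in each library, which follows from gating on them and is no check of identity. Libraries shared between 12 and 18 deposited barcodes and between 3 and 5 kept ones. In the D14 library 76 of the 122 cMono-like cells held 3 or more neutrophil markers, against 48 of 264 at D11 and 13 of 160 in naive, so the D14 changes of the members in cMono-like cells, their balance and the list genes named there are also given without them. Shares of a gene's UMIs by class are given with them only. Of the ncMono-like cells, 80 of 639 at D14, 5 of 211 at D11 and 4 of 137 in naive held 3 or more neutrophil markers. Without these, Fcgr4 in ncMono-like cells was at 355 CPM in naive, 390 CPM at D11 and 1141 CPM at D14. Most other ncMono-like values are given with these cells only. Hemoglobin transcripts took 0.0189% of ncMono-like UMIs in naive, 1.62% in the D11 library and 0.954% in the D14 library. The part of these transcripts in the results was not tested, but leaving them out with ribosomal and mitochondrial genes moved the D14 change of Fcgr4 in ncMono-like cells only from 1.64 to 1.67 on the log2 scale.

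Of the 5 genes, 4 lie within 276 kb of chromosome 1, in the order Fcgr2b, Fcgr4, Fcgr3, Fcer1g (GRCm38, chr1:170958617-171234365), and Fcgr1 lies on chromosome 3 (chr3:96282909-96293969, minus strand). Fcgr4 (ENSMUSG00000059089, chr1:171018920-171029761) is on the plus strand. Fcgr2b (ENSMUSG00000026656, chr1:170958617-170976547), Fcgr3 (ENSMUSG00000059498, chr1:171051174-171064935) and Fcer1g (ENSMUSG00000058715, chr1:171229572-171234365) are on the minus strand. Fcgr2b and Fcgr3 are close relatives, and their transcripts share 136 windows of 60 identical bases. The nearest of these ends 367 bases from the 3′ end of an Fcgr2b transcript and 699 bases from that of Fcgr3. Reads close to the 3′ ends therefore tell them apart, but reads within the shared stretches may not. What this does to the counts of both genes was not tested. No other pair of the 5 shared such a window. The antisense gene Gm38204 overlaps Fcgr2b and had 18 UMIs over all the monocyte, neutrophil, B-like, pro-B-like and NK-like sums.

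The promoter windows of the 5 genes are shown because Fcgr2b was found in B-like and pro-B-like cells as well as in myeloid ones, while B-like cells had at most 2 UMIs a library of Fcgr1, Fcgr3 or Fcgr4. Each runs 5′ to 3′ on the gene's strand from 100 bases before the RefSeq start to 20 bases from it on (GRCm38.p6: Fcgr1 chr3:96293950-96294069 minus, Fcgr3 chr1:171059384-171059503 minus, Fcgr4 chr1:171018826-171018945 plus, Fcgr2b chr1:170976052-170976171 minus, Fcer1g chr1:171234330-171234449 minus). Capitals mark GAGGAA on either strand, here always its reverse complement, and for Fcgr3 the first of 2 listed promoters is shown. The RefSeq starts of Fcgr3 (171059403) and Fcgr2b (170976071) lie further inside the gene bounds given above than those of the other genes. Sequence at the outer bounds of these genes was not searched. GAGGAA is a form of the site bound by the transcription factor PU.1, and other forms were not searched.
Fcgr1: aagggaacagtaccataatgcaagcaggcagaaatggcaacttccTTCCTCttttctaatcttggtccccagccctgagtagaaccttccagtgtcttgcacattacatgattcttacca
Fcgr3: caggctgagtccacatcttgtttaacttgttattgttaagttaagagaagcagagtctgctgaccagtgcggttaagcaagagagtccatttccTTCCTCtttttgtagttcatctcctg
Fcgr4: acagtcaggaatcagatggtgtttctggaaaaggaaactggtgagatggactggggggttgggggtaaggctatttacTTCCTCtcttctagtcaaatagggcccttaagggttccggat
Fcgr2b: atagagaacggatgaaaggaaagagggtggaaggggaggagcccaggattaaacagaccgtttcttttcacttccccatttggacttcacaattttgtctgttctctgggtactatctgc
Fcer1g: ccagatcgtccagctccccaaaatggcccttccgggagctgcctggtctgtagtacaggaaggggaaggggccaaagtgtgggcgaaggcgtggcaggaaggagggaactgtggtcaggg
This string stood once in each of the Fcgr1, Fcgr3 and Fcgr4 windows, starting 55, 6 and 22 bases before the start. It stood in neither the Fcgr2b nor the Fcer1g window. Of 27025 RefSeq promoters, 11.9% held it in this window and 28.3% in the whole 300 bases. A match is a string of letters and no record of binding. Whether matches go with the cell classes that held a gene was not tested.

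Among the activating receptors, Fcgr4, a receptor of intermediate affinity for IgG, had its highest level in ncMono-like cells in each library. Levels are given as CPM, the UMIs of a gene per 1000000 UMIs of all cells of a class in a library, with exact Poisson 95% intervals in brackets. In ncMono-like cells Fcgr4 was at 356 CPM in naive [322 to 392], 387 CPM at D11 [360 to 416] and 1112 CPM at D14 [1087 to 1138]. The naive and D11 intervals overlapped, and the D14 interval lay above both. The log2 change over naive was 0.12 at D11 [-0.06 to 0.30] and 1.64 at D14 [1.499 to 1.79], so nearly all of the difference lay between D11 and D14, at 2.87-fold. Neutrophil-like cells held 110.1, 115 and 99.97 CPM of Fcgr4, with overlapping intervals, and cMono-like cells 32.3, 16.3 and 51.9 CPM. From D11 to D14 the neutrophil-like log2 change was -0.20 [-0.36 to -0.04] with CPM. The ratio of ncMono-like to cMono-like levels was 11.0 in naive, 23.8 at D11 and 21.4 at D14, the last 15.02 without monocyte cells that held 3 or more neutrophil markers.

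The Fcgr4 difference was spread over most ncMono-like cells. The median cell held 2 Fcgr4 UMIs in naive, 3 at D11 and 10 at D14, with maxima of 11, 27 and 49, and the tenth of the cells with the most UMIs held 28.9%, 33.6% and 24.9% of them. After each cell was thinned to 1000 UMIs, with 1, 0 and 1 shallower cells left out, 32.4% [24.6 to 40.9], 31.8% [25.5 to 38.5] and 63.3% [59.5 to 67.1] of ncMono-like cells had an Fcgr4 UMI. The unthinned shares were 81.8%, 80.1% and 96.2%, at median depths of 7960, 8048 and 9289 UMIs. T-like cells, which should lack the receptor, had an Fcgr4 UMI in 0.31% of 1289, 0 of 283 (at most 1.30%) and 0 of 114 (at most 3.18%) thinned cells. The unthinned shares there were 0.463%, 0.699% and 0 of 114, at median depths of 8990, 6919 and 7520 UMIs.

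**Figure D1:**
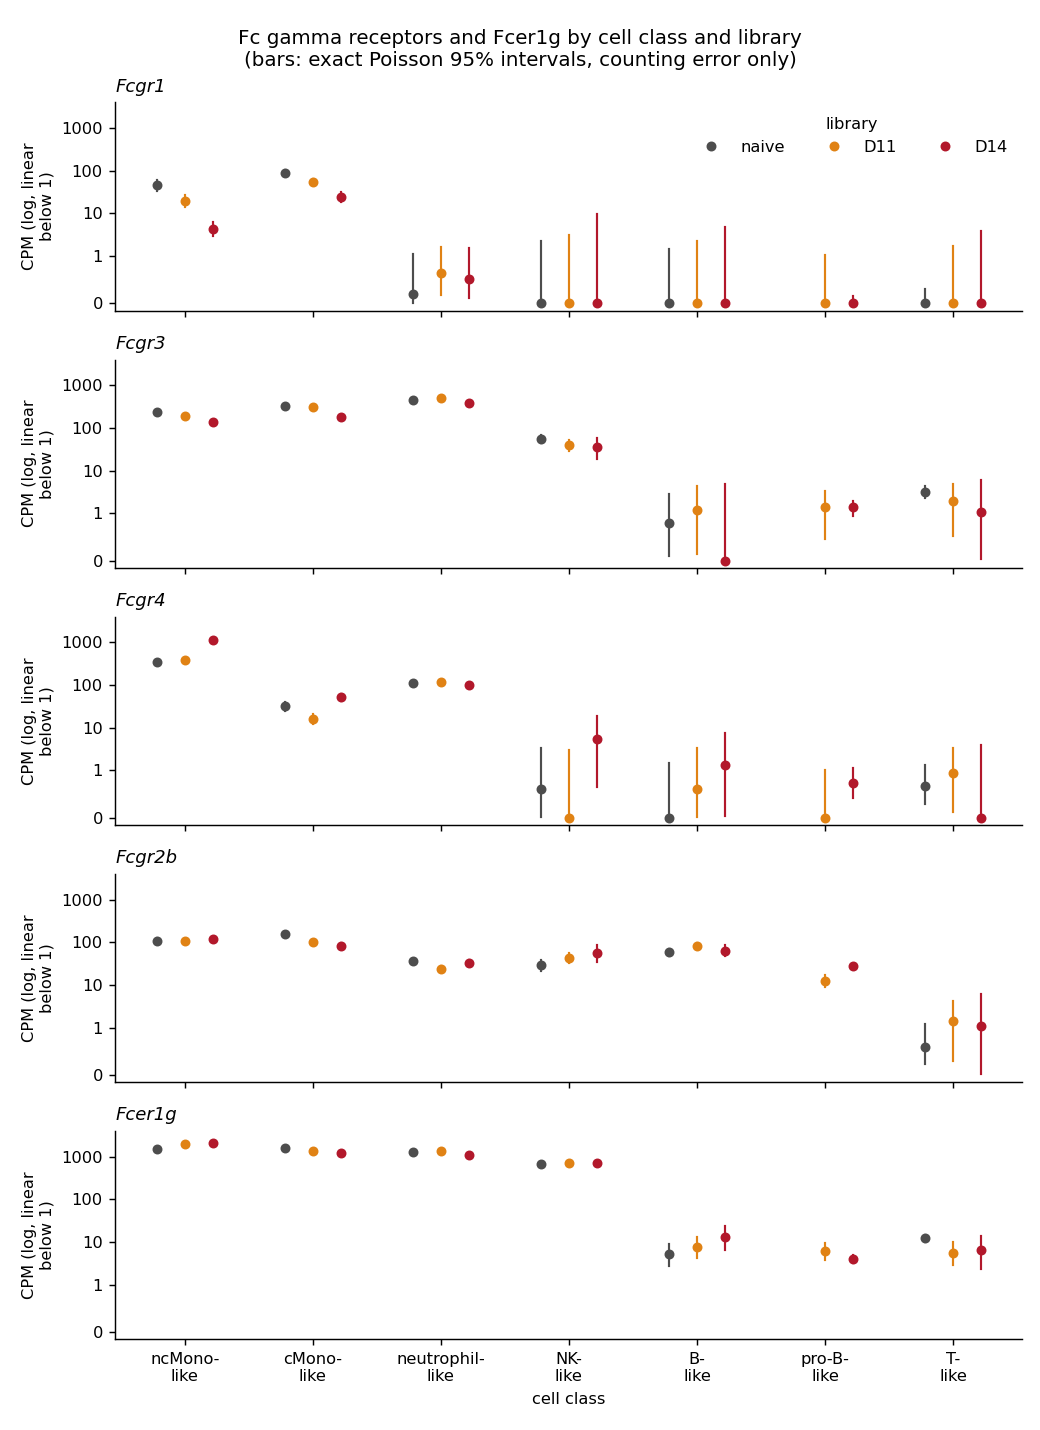
Level of each gene in CPM (vertical axis, logarithmic above 1) in 7 cell classes with at least 50 cells, with 1 point per library and exact Poisson 95% intervals for counting error. Fcgr4 was highest in ncMono-like cells at D14, at 1112 CPM. T-like cells stayed at or below 12.2 CPM for all 5 genes, and B-like and pro-B-like cells had Fcgr2b at over 12 CPM in each library drawn.

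Fcgr3, the low-affinity activating receptor, showed another distribution. Its highest level was in neutrophil-like cells, at 457 CPM in naive [438 to 476], 489 CPM at D11 [472 to 507] and 383 CPM at D14 [367 to 399], and among the classes with 50 or more cells cMono-like cells came next at 321, 310 and 185 CPM. The 12 naive and 12 D11 basophil-like cells had 337 CPM [214 to 506] and 238 CPM [141 to 376]. In ncMono-like cells it was at 237 CPM in naive [209 to 267], 191 CPM at D11 [172 to 212] and 140 CPM at D14 [131 to 149]. These values go down where Fcgr4 goes up, with overlapping naive and D11 intervals and a D14 interval below both. The log2 change at D11, -0.31 [-0.54 to -0.07], was beyond counting error with CPM. TMM factors, which scale the libraries so that most genes stay level, shift ncMono-like changes at D11 upward by 0.10. That is more than the distance of this interval from 0, so the D11 change depends on the scaling. The log2 change at D14 was -0.76 [-0.96 to -0.56] in ncMono-like and -0.80 [-0.97 to -0.62] in cMono-like cells. For neutrophil-like cells the value was -0.25 [-0.34 to -0.17] with CPM and -0.00 with TMM factors.

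Fcgr1, the high-affinity receptor for IgG, had most of its UMIs in the monocyte classes. It was highest in cMono-like cells, at 89.6 CPM in naive [77.1 to 104], 54.7 CPM at D11 [47.3 to 63.0] and 24.4 CPM at D14 [18.7 to 31.3], and no intervals of the 3 libraries overlapped. The ncMono-like levels were 45.3, 19.7 and 4.33 CPM, from 51, 38 and 28 UMIs, again with no overlap. The log2 change at D14 was -1.88 [-2.32 to -1.45] in cMono-like cells and -3.38 [-4.10 to -2.69] in ncMono-like cells, and in both classes D11 lay between naive and D14. With the cMono-like cells that held 3 or more neutrophil markers left out, the value was -1.29. Neutrophil-like cells had 1, 4 and 3 Fcgr1 UMIs among at least 4879402 UMIs a library, and B-like, pro-B-like, T-like and NK-like cells had none in any library with at least 50 of their cells. In the largest of these sums, 23310559 UMIs of D14 pro-B-like cells, a count of 0 allows up to 0.129 CPM.

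Fcgr2b, the inhibitory receptor, stood above the T-like level in myeloid, NK-like, B-like and pro-B-like cells. In ncMono-like cells it was at 107 CPM in naive [89.1 to 128], 106 CPM at D11 [92.1 to 122] and 116 CPM at D14 [108 to 125], and all 3 intervals overlapped. In cMono-like cells it was at 155 CPM in naive [139 to 173], 104 CPM at D11 [93.3 to 115] and 81.8 CPM at D14 [71.1 to 93.7], with naive above both others. Its order between the monocyte classes therefore turned. The ncMono-like level was lower than the cMono-like level in naive, at a log2 difference of -0.53 [-0.85 to -0.23], did not differ beyond counting error at D11, at 0.03 [-0.22 to 0.28], and was higher at D14, at 0.51 [0.28 to 0.73]. Neutrophil-like cells held 35.5, 23.7 and 33.2 CPM, lowest at D11.

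In B-like cells, where Fcgr2b is known as the sole IgG Fc receptor, it was the only member of the group whose interval lay above that of T-like cells in each library. It was at 57.7 CPM in naive [48.7 to 67.9], 81.7 CPM at D11 [68.5 to 96.7] and 63.8 CPM at D14 [47.1 to 84.6], with overlap between D14 and both others. B-like cells had no Fcgr1 UMI, at most 2 Fcgr3 and 1 Fcgr4 UMIs a library, and 13, 13 and 10 Fcer1g UMIs. In pro-B-like cells, whose markers are those of the pro-B phenotype given for BBC2, Fcgr2b was at 12.4 CPM at D11 [9.01 to 16.6] and 28.4 CPM at D14 [26.2 to 30.6], from 44 and 661 UMIs. Their intervals did not overlap, and both were below the B-like level of the same library, 6.59-fold at D11 and 2.25-fold at D14. The B-like class itself differed by markers. Its summed pro-B markers were at 286 CPM in naive, 229 CPM at D11 and 1253 CPM at D14, and its summed B markers at 7518, 6961 and 3038 CPM. Barcodes with markers of both classes were not set aside as mixed, and their part in the D14 values was not tested. There were only 4 pro-B-like cells in naive, so no naive level is given. T-like cells had Fcgr2b at 0.589, 1.42 and 1.08 CPM, from 7, 3 and 1 UMIs.

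Fcer1g, the shared chain, had more UMIs than any of the receptors in monocyte, neutrophil-like and NK-like cells. In ncMono-like cells it was at 1553 CPM in naive [1481 to 1627], 2023 CPM at D11 [1960 to 2087] and 2106 CPM at D14 [2070 to 2141], with both leukemic libraries above naive. The cMono-like levels were 1624, 1384 and 1236 CPM, with no overlap and naive highest. Neutrophil-like cells held 1303, 1369 and 1105 CPM, where D14 was lowest with CPM, at a log2 change of -0.24 [-0.29 to -0.19], but was level with naive with TMM factors, at 0.01. NK-like cells held 682, 721 and 715 CPM with overlapping intervals, and T-like cells 12.2, 5.67 and 6.45 CPM. The 12 naive and 12 D11 basophil-like cells had 1187 [943 to 1475] and 766 CPM [581 to 990] of the chain, which is also part of the IgE receptor, and the 18 D14 platelet-like barcodes 1235 CPM [783 to 1853] from 23 UMIs.

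The counts past a 1.5-fold change were set beside the share of all genes past it, among genes that averaged 50 CPM or more over both libraries compared. A gene can reach that average through 1 library alone, for members and all genes alike. In ncMono-like cells at D11, 0 of the 4 members at that level were past it, where 13.3% of 3670 genes were. At D14 there were 2 of 4, Fcgr4 higher and Fcgr3 lower, where 14.7% of 3696 genes were past it. In cMono-like cells, 1 of 4 members was past it at D11, Fcgr1, against 5.32% of all genes, and 3 of 4 at D14, Fcgr1, Fcgr2b and Fcgr3, all lower, against 17.2%. In the 46 cMono-like cells of D14 with fewer than 3 neutrophil markers, against 147 in naive, 4 of 5 members were past it, where 19.4% of 3531 genes were. There Fcgr2b was at -1.10 and Fcgr3 at -0.70 on the log2 scale. Fcgr4 was higher, but at 30.2 CPM in naive and 76.0 CPM at D14 it reached the level only through D14. In the whole cMono-like class at D14, Fcgr1, at 89.6 CPM in naive and 24.4 CPM at D14, reached it only through naive. These 2 members were counted by way of the library where they were high, so they add no support to the counts. In neutrophil-like cells, 0 of 3 were past it at either day, against 10.9% at D11 and 35.4% at D14. Members under the level were Fcgr1 in ncMono-like cells, Fcgr4 in cMono-like cells, and Fcgr1 and Fcgr2b in neutrophil-like cells. Over all genes the median log2 change of these comparisons ranged from -0.23 to 0.02, and the share of higher among called genes moved with the scaling. It was 51.7% with CPM and 70.6% with TMM factors in ncMono-like cells at D14, 32.9% and 60.5% in neutrophil-like cells at D14, 47.0% and 69.3% in ncMono-like cells at D11, 41.7% and 78.1% in neutrophil-like cells at D11, 41.6% and 55.1% in cMono-like cells at D11, and 49.2% and 46.3% in cMono-like cells at D14. The members past 1.5-fold were equally many under either scaling.

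**Figure D2:**
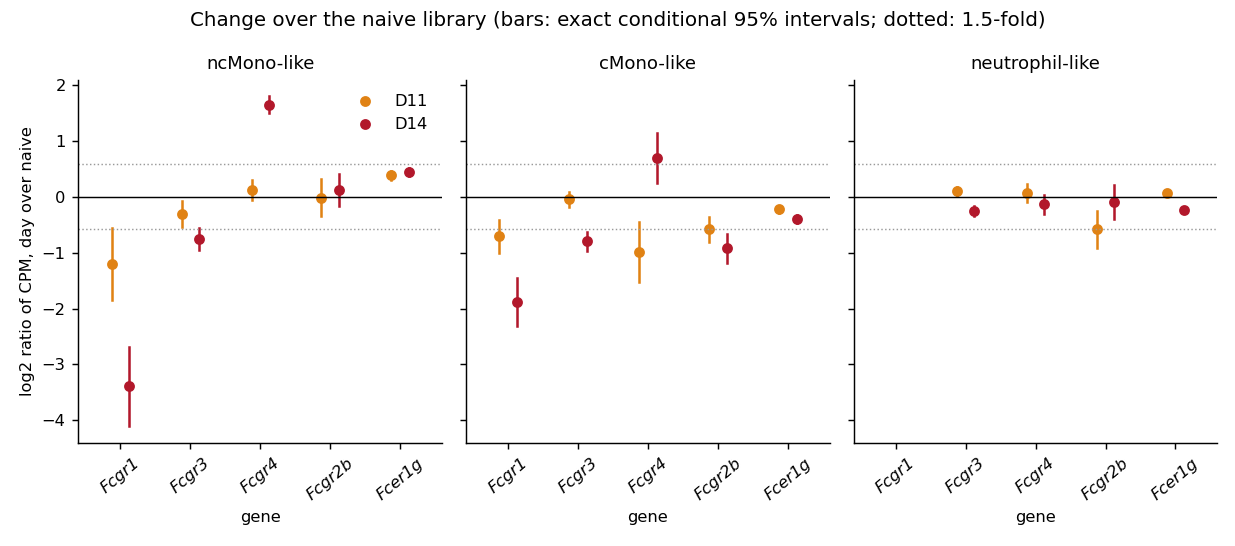
Log2 ratio of CPM over naive (vertical axis) for the 5 genes in 3 cell classes at D11 and D14, with exact conditional 95% intervals and dotted lines at 1.5-fold. Fcgr4 stands at 1.64 in ncMono-like cells at D14 while Fcgr1 and Fcgr3 lie below 0, and Fcgr1 is not drawn in neutrophil-like cells, which had 1, 4 and 3 UMIs of it.

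The balance of activating to inhibitory receptors was taken as the UMIs of Fcgr1, Fcgr3 and Fcgr4 together over the UMIs of Fcgr2b in the same cells. UMIs of 3′ libraries do not scale with transcript length, but capture can differ between genes, so the ratio is compared between classes and libraries and not read as an absolute number of receptors. In ncMono-like cells it was 5.94 in naive [4.90 to 7.27], 5.64 at D11 [4.86 to 6.57] and 10.8 at D14 [10.0 to 11.7]. Naive and D11 overlapped and D14 was above both, with a log2 change over naive of 0.86 [0.55 to 1.16] and over D11 of 0.94 [0.69 to 1.18]. Without Fcgr1 the change over naive was 0.96, and in the cells with under 3 classical markers (96, 152 and 512 of the 137, 211 and 639) it was 0.67.

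The 3 activating receptors did not move as a block within that balance. Per Fcgr2b UMI in ncMono-like cells, Fcgr4 went from 3.31 in naive to 9.57 at D14, Fcgr3 from 2.21 to 1.202, and Fcgr1 from 0.421 to 0.037. Fcgr4 made up 55.8% [52.1 to 59.4] of the activating UMIs in naive, 64.7% [61.9 to 67.5] at D11 and 88.5% [87.8 to 89.2] at D14. In these libraries Fcgr3 went from 37.1% to 32.0% and 11.1%, and Fcgr1 from 7.09% to 3.29% and 0.345%. There were 1.502 Fcgr4 UMIs per Fcgr3 UMI in naive [1.28 to 1.76], 2.02 at D11 [1.78 to 2.30] and 7.96 at D14 [7.43 to 8.54], with no overlap.

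In cMono-like cells the balance stayed lower and its make-up differed. It was 2.85 in naive [2.51 to 3.26], 3.68 at D11 [3.28 to 4.14] and 3.19 at D14 [2.73 to 3.75], where D11 was above naive and D14 overlapped both. Fcgr3 made up most of the activating UMIs, at 72.5%, 81.4% and 70.8%, and Fcgr4 7.29%, 4.27% and 19.9%. Numerator and denominator both went down at D14, so the ratio moved little although Fcgr1, Fcgr2b and Fcgr3 were each lower. Without the cells that held 3 or more neutrophil markers the log2 change at D14 was 0.60 in place of 0.16, and that of Fcgr4 1.33 in place of 0.68, from 46 of the 122 cells. With mixed barcodes kept, the change of Fcgr4 was 0.22.

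Neutrophil-like cells had the highest balance, at 15.99 in naive [13.7 to 18.8], 25.6 at D11 [21.7 to 30.4] and 14.6 at D14 [12.6 to 16.9]. D11 stood above the others, at a log2 change over naive of 0.68 [0.34 to 1.01], and the ratio does not depend on the scaling of the libraries. The changes of its parts do. The log2 changes at D11 were -0.58 for Fcgr2b, 0.10 for Fcgr3 and 0.06 for Fcgr4 with CPM, and -0.38, 0.31 and 0.27 with TMM factors. Fcgr3 made up 79.2% to 80.9% of the activating UMIs and Fcgr4 19.0% to 20.7% in all 3 libraries, and the ratio of Fcgr4 to Fcgr3 UMIs, 0.241, 0.235 and 0.261, had overlapping intervals.

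NK-like cells, whose activating receptor is Fcgr3, had a lower balance than either monocyte class or the neutrophil-like cells. It was 1.92 in naive [1.34 to 2.78], 0.904 at D11 [0.596 to 1.37] and 0.714 at D14 [0.343 to 1.45]. The counts were small, 92, 47 and 15 activating against 48, 52 and 21 Fcgr2b UMIs. All 3 intervals overlapped, those of D11 and D14 with naive only just. The log2 change over naive was -1.08 at D11 [-1.89 to -0.28] and -1.42 at D14 [-2.61 to -0.25]. Fcgr2b was at 29.4, 43.3 and 56.2 CPM and Fcgr3 at 55.6, 39.1 and 34.8 CPM, and the Fcgr2b intervals of all 3 libraries overlapped, as did those of Fcgr3. The log2 change of Fcgr2b from naive to D14, 0.94 [0.12 to 1.71], was nonetheless beyond counting error. Its D11 change and the Fcgr3 changes over naive were not.

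**Figure D3:**
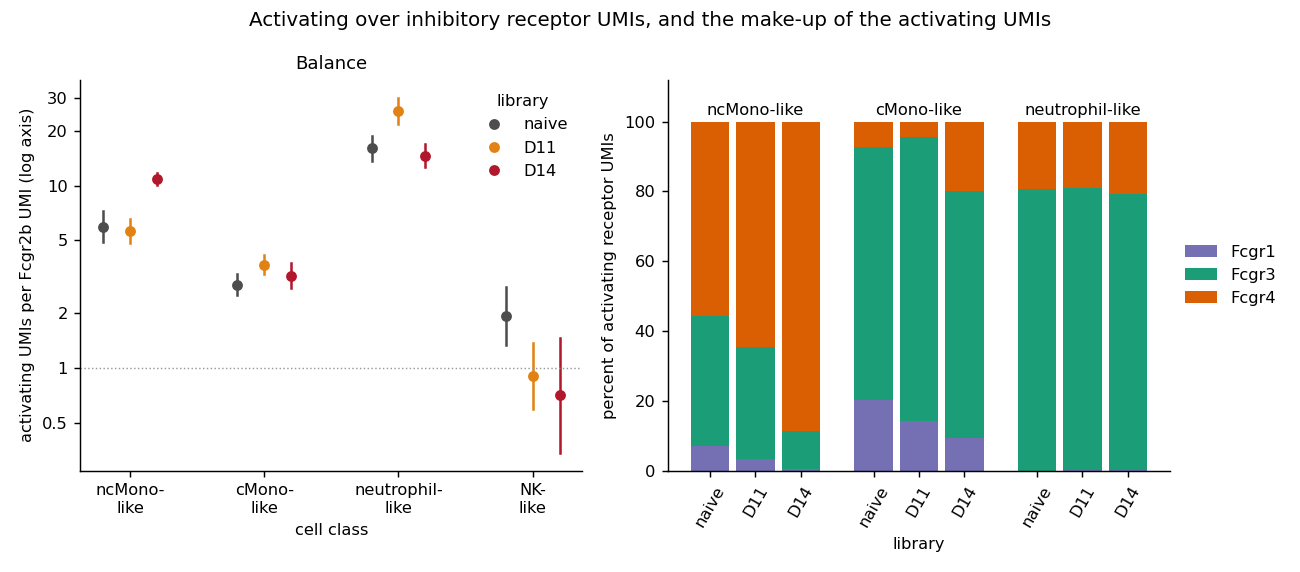
Left, activating receptor UMIs per Fcgr2b UMI (logarithmic axis) in 4 cell classes and 3 libraries with exact 95% intervals; right, percent of the activating UMIs that each receptor made up in 3 classes. The ncMono-like ratio stands at 10.8 at D14 against 5.94 in naive, with Fcgr4 at 88.5% of its activating UMIs, and the neutrophil-like make-up is alike in all 3 libraries.

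The ratio of shared chain to activating IgG receptor UMIs differed by class as well. There were 2.43 Fcer1g UMIs per activating receptor UMI in naive ncMono-like cells [2.23 to 2.66], 3.38 at D11 [3.17 to 3.61] and 1.68 at D14 [1.63 to 1.72], with no overlap, so the ratio was highest at D11 and lowest at D14. In cMono-like cells it was 3.66, 3.63 and 4.73, highest at D14. Without the cells that held 3 or more neutrophil markers it was 3.71 [3.43 to 4.02], 3.61 [3.37 to 3.86] and 4.46 [3.88 to 5.16], where the D14 interval overlapped that of naive. In neutrophil-like cells it was 2.30, 2.26 and 2.29, with overlapping intervals. NK-like cells held 12.1, 18.4 and 17.8 per activating UMI, the most of these 4 classes, and the chain has other partners there. Other partners were left out of the ratio in the other classes too. Neutrophil-like cells held Clec4d at 734, 661 and 585 CPM and Pira2 at 463, 478 and 616 CPM. In ncMono-like cells Cd300ld was at 265, 390 and 340 CPM. These ratios therefore describe the IgG receptors alone.

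Which cells held the transcripts changed with both the level per cell and the number of cells. Of all Fcgr4 UMIs in kept barcodes, neutrophil-like cells held 46.7% in naive [43.7 to 49.6], 41.6% at D11 and 6.74% at D14 [6.22 to 7.30]. The share in ncMono-like cells was 34.8% [32.1 to 37.7], 43.8% and 84.8% [84.0 to 85.5], so the 2 classes changed places. Fcgr3 stayed mostly in neutrophil-like cells, with 61.8%, 59.8% and 53.0%, and Fcgr1 in cMono-like cells, with 64.4%, 75.6% and 53.0%. For Fcer1g the ncMono-like share was 12.3%, 19.1% and 51.8%. For Fcgr2b, the largest share at D14 was in ncMono-like cells, which held 13.2%, 19.7% and 34.7%, while cMono-like cells held 34.7%, 35.4% and 9.60%. Pro-B-like cells held 0.219% in naive, 4.22% at D11 and 30.5% at D14 [28.6 to 32.5], where B-like cells went from 15.8% to 12.96% and 2.22%. Pro-B-like cells also had the most UMIs of all genes of any class at D14, 23310559. Barcodes with markers of 2 unrelated classes held between 4.80% and 19.7% of the UMIs of a gene and belong to none of these shares.

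**Figure D4:**
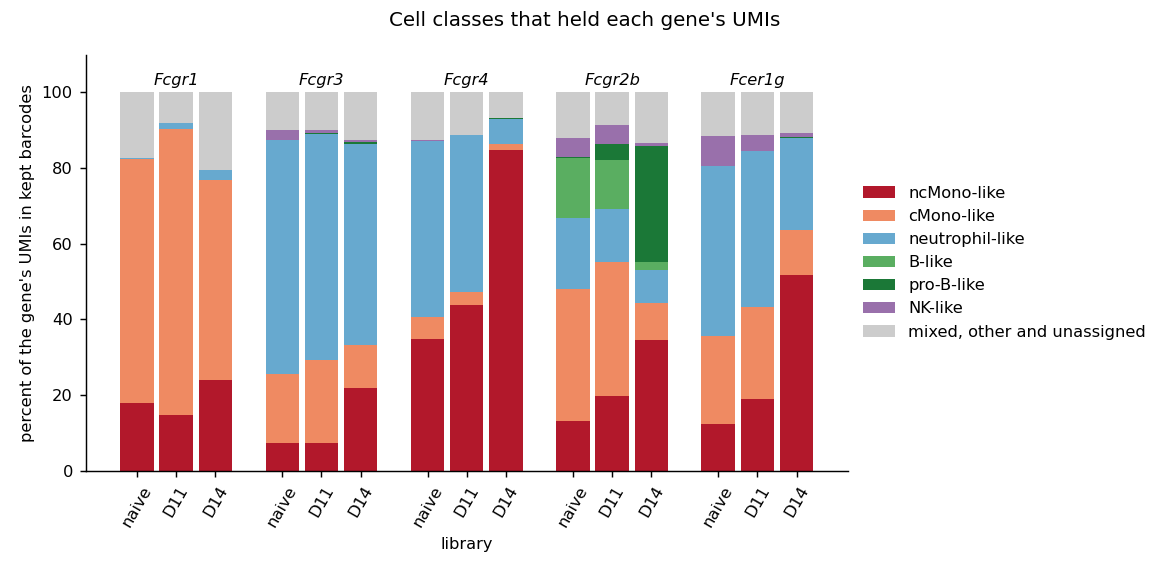
Percent of each gene's UMIs in kept barcodes (vertical axis) that each cell class held, by library; grey holds mixed, unassigned and all other classes. At D14 ncMono-like cells held 84.8% of Fcgr4 UMIs and 34.7% of Fcgr2b UMIs, and pro-B-like cells held 30.5% of Fcgr2b UMIs.

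Few cells showed both arms of the balance once thinned to 1000 UMIs, a depth at which Fcgr2b transcripts are sparse. Unthinned ncMono-like cells had Fcgr2b together with Fcgr4 far more often (naive 40.1%, D11 34.6%, D14 49.9%). The joint share therefore depends on depth, and the low thinned values do not show that joint expression is rare. After thinning to 1000 UMIs, 2.21% [0.457 to 6.31], 5.21% [2.63 to 9.14] and 8.46% [6.42 to 10.9] of ncMono-like cells had UMIs of both Fcgr2b and Fcgr4 in naive, D11 and D14. Naive and D11 overlapped, as did D11 and D14. At 2000 UMIs a cell the shares were 6.72% [3.12 to 12.4], 7.69% [4.46 to 12.2] and 16.8% [14.0 to 19.9], and D14 lay above both others. The thinned share with an Fcgr2b UMI was 5.15% [2.09 to 10.3], 9.48% [5.89 to 14.3] and 11.3% [8.94 to 14.0], whereas the unthinned shares were 45.3%, 43.1% and 50.9%. The order of the thinned shares goes against the nearly level CPM, and no order is read from them. T-like cells had an Fcgr2b UMI in 0.155% of 1289, 0 of 283 (at most 1.30%) and 0 of 114 (at most 3.18%) thinned cells.

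Neutrophil-like cells of the leukemic libraries held more markers of immature neutrophils, granule genes such as Ltf, Camp and Ngp. Of 9 such markers, 6 or more were found in 15 naive, 116 D11 and 279 D14 cells, or 1.12%, 7.16% and 21.7%. Cells with more markers were also deeper, with medians of 3351.5, 2893 and 2141 UMIs for 0 to 2 markers and 10297, 7947 and 7939 for 6 to 9, and 3 of the 9 also served in the neutrophil gate.

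Within each library Fcgr4 was lower in the cells with 6 or more of these markers. It stood at 37.2 against 113 CPM in naive, 44.3 against 139 CPM at D11 and 66.9 against 139 CPM at D14, from 6, 44 and 146 UMIs. The log2 difference was -1.61 [-3.06 to -0.47], -1.65 [-2.13 to -1.20] and -1.06 [-1.39 to -0.72]. Fcgr3 was lower too, at -1.24 [-1.79 to -0.74], -0.54 [-0.71 to -0.38] and -0.36 [-0.53 to -0.18]. Fcer1g moved less, at -0.05, -0.15 and 0.18, above 0 at D14 alone.

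In cells with 0 to 2 immature markers the change of Fcgr4 over naive had, with CPM, another sign than in the whole class at D14. Fcgr4 was at 113 CPM in naive [103.4 to 124], 139 CPM at D11 [127 to 152] and 139 CPM at D14 [118 to 163], a log2 change at D14 of 0.30 [0.03 to 0.56] where the whole class had -0.14 [-0.31 to 0.03], or 0.11 with TMM factors. Fcer1g was at 1298, 1416 and 1024 CPM, and its change at D14, -0.34 [-0.43 to -0.25], had the same sign as in the whole class. Fcgr3 was at 469.9, 514 and 400.4 CPM. The balance in these cells was 16.3, 26.0 and 15.2, close to that of the whole class in each library.

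**Figure D5:**
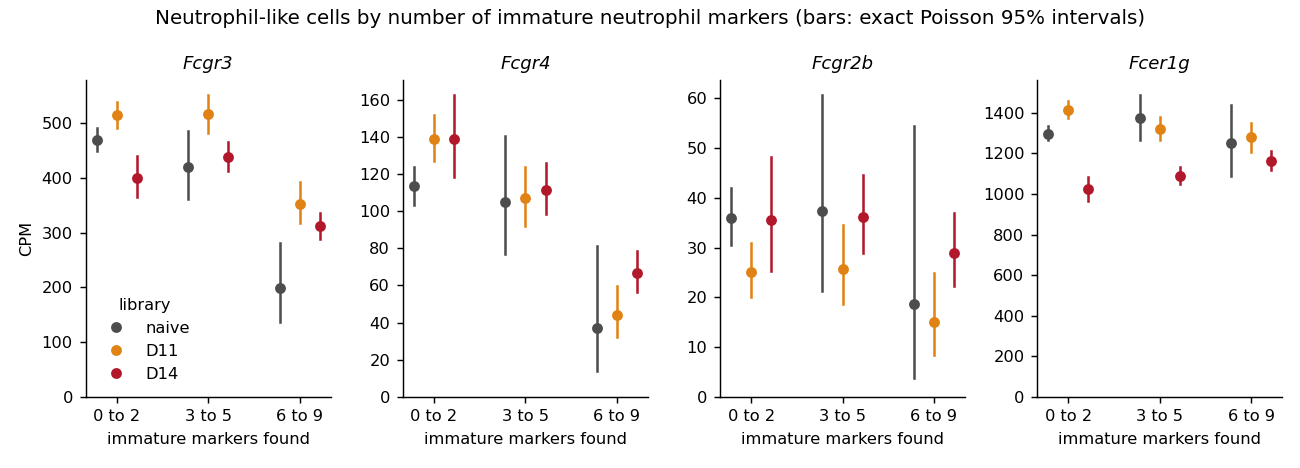
Level in CPM (vertical axis, from 0) of 4 genes in neutrophil-like cells grouped by how many of 9 immature markers were found, with 1 point per library and exact Poisson 95% intervals. Fcgr3 and Fcgr4 are lower in cells with 6 to 9 markers in each library; the naive points there rest on 15 cells.

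The genes that act downstream of the FcR gamma chain were summarised from a list of 16 ITAM signalling genes. In ncMono-like cells at D11, 15 averaged 50 CPM or more, with a median log2 change of -0.17, where the median of all genes was -0.06. Of these 15, 2 were past 1.5-fold, Lat2 and Rac2, both higher, where 13.3% of all genes were past it. In ncMono-like cells at D14, 14 averaged 50 CPM or more, with a median log2 change of 0.21, where the median of all genes was 0.01. Against 14.7% of all genes past 1.5-fold, 1 of these 14 was past it in each direction. These were Rac2, a GTPase of the oxidase and cytoskeleton (201, 329 and 361 CPM), and Dapp1, an adaptor that binds phosphoinositides (335, 225 and 208 CPM). With TMM factors Dapp1 was not past it and Pik3r5, a subunit of a PI3 kinase, was, so that 2 were higher and 0 lower. The most abundant were the Src family kinases Lyn, at 2388, 1959 and 2340 CPM, and Fgr, at 1187, 976 and 950 CPM, with the exchange factor Vav3 at 1051, 788 and 1279 CPM. Syk, the kinase that docks on the chain, had ncMono-like levels of 804, 617 and 703 CPM. Its neutrophil-like levels were 1007, 619 and 541 CPM, past 1.5-fold lower on both days, on D14 alone with TMM factors. In neutrophil-like cells 1 of 14 genes of the list was past it at D11 and 2 of 14 at D14, Syk and, with CPM alone, Pik3r5, all lower. The shares of all genes past it there were 10.9% at D11 and 35.4% at D14.

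Of 10 genes of inhibitory signalling, 9 were at the level in ncMono-like cells. At D14 their median log2 change was 0.28 and 2 were past 1.5-fold with CPM, both higher: Pag1, the membrane adaptor that holds Csk near Src kinases (864, 879 and 1539 CPM), and Cblb, a ubiquitin ligase (804, 1021 and 1425 CPM). Of all genes, 14.7% were past 1.5-fold with CPM. With TMM factors Dok1 was past it too, higher. Inpp5d, which encodes SHIP1, the phosphatase that Fcgr2b recruits, had ncMono-like levels of 607, 518 and 546 CPM. Its log2 change there at D14 was -0.15 [-0.27 to -0.03] with CPM. TMM factors shift ncMono-like changes at D14 upward by 0.12, so this small change depends on the scaling. Its neutrophil-like levels were 574, 395 and 361 CPM, past 1.5-fold lower at D14 with CPM but not with TMM factors. Cbl, another ubiquitin ligase, was at 305, 303 and 416 CPM, and the adaptor Dok3 at 146, 140 and 131 CPM, both in ncMono-like cells. In cMono-like cells at D14, 2 of 8 genes of the list, against 17.2% of all genes, were past 1.5-fold, Pag1 and Ptpn11, both higher. Without the cells that held 3 or more neutrophil markers both were past it too, at 1.75 and 0.69 on the log2 scale.

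Of 9 listed receptors that pair with the FcR gamma chain other than the IgG receptors, most were below the level in ncMono-like cells. At D11, 3 were at it and 0 were past 1.5-fold with CPM, where 13.3% of all genes were. With TMM factors Cd300ld was past it at D11, higher, at 0.66 on the log2 scale in place of 0.55. At D14, 4 were at it, with a median log2 change of 1.22. Against 14.7% of all genes, 3 of these 4 were past 1.5-fold with CPM, all higher. Those were Clec4n (Dectin-2) at 23.1, 50.7 and 141 CPM, Clec4e (Mincle) at 62.1, 78.7 and 177 CPM, and Pira2, a paired immunoglobulin-like receptor, at 97.6, 125 and 188 CPM. Clec4n was under 50 CPM in naive and reached the level only through D14. It adds no support to the count, and the median of 1.22 includes it. Near-identical Pira genes may share reads, so the Pira2 value is uncertain. Cd300ld was at 265, 390 and 340 CPM, and Clec4d, which averaged under 50 CPM, at 26.6, 20.2 and 72.7 CPM and, with TMM factors, at the level and past 1.5-fold higher. In cMono-like cells at D14, 1 of 2 was past 1.5-fold, Clec4e, and in neutrophil-like cells 1 of 3, again Clec4e, both higher. Pira2 joined it in neutrophil-like cells with TMM factors. The shares of all genes past 1.5-fold with CPM were 17.2% and 35.4% in these classes. Without the cMono-like cells that held 3 or more neutrophil markers, Clec4e was at 33.5 CPM in naive and 91.4 CPM at D14 in that class. With or without these cells, Clec4e reached the level in that class only through D14. In neutrophil-like cells it was at 168, 239 and 278 CPM. Of 4 other listed adaptors, 2 were at the level in each of the 3 classes. Only Tyrobp (DAP12) was past 1.5-fold, lower in neutrophil-like cells at D14, where 35.4% of all genes were past it. Its neutrophil-like levels were 3447, 2937 and 1917 CPM and its ncMono-like levels 1541, 1757 and 1433 CPM. Hcst (DAP10) had ncMono-like levels of 60.3, 62.6 and 76.6 CPM. Cd247 was at most at 7.17 CPM and Ms4a2 at most at 0.281 CPM in these classes.

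ITIM receptors of myeloid cells other than Fcgr2b went in both directions. Of 8 listed, 7 were at the level in ncMono-like cells at D14, with a median log2 change of 0.32. There were 3 past 1.5-fold higher (Pirb, Siglece and Cd300lf) and 2 lower (Cd300a and, with CPM alone, Clec12a). Siglece and Cd300lf were under 50 CPM in naive and reached the level only through D14, so they add no support to the count. Of all genes, 14.7% were past it in either direction. Siglece was at 9.76, 35.2 and 133 CPM, and Cd300a at 749.7, 536 and 407 CPM. Sirpa, which binds CD47, was at 575, 449 and 486 CPM, Lilrb4a at 119, 133 and 149 CPM, and Cd300lf at 35.5, 24.8 and 67.6 CPM. Of 11 other Fc receptors and Fc binding proteins, 1 was at the level in ncMono-like cells, Fcgrt, the neonatal Fc receptor, at 178, 137 and 144 CPM. Its cMono-like levels were 90.1, 57.3 and 38.5 CPM, past 1.5-fold lower on both days, also without the cells that held 3 or more neutrophil markers. At D14 Fcgrt reached the level in this class only through naive. The shares of all genes past it in cMono-like cells were 5.32% at D11 and 17.2% at D14. Fcrl1, Trim21 and Fcrl5 averaged under 50 CPM in ncMono-like cells, with Fcrl5 at 1.77, 12.4 and 21.8 CPM, Fcrl1 at 21.3, 14.5 and 13.2 CPM, and Trim21 at 8.87, 5.17 and 10.7 CPM. The background shares are those given above for each class and day.

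Across the 23 sums of a class and library with at least 50 cells, the genes most like each member were found among 6850 genes by Pearson's r of log2(CPM + 1). For Fcgr4 they were Cd300ld (0.97), Treml4 (0.97) and Clec4n (0.96), of which Treml4 was a marker of the ncMono gate and both others are on the list of FcR gamma chain partners. For Fcgr3 they were Emilin2 (0.99), Itgam (0.96) and Tyrobp (0.96), and for Fcer1g Itgam (0.98), Metrnl (0.98) and Tyrobp (0.98). Fcgr1 was most like Rnd3 (0.98), Arhgef37 (0.97) and Msr1 (0.97), and Fcgr2b most like Plcg2 (0.97), Zeb2 (0.95) and 5430427O19Rik (0.94). Between members, r was highest for Fcgr3 with Fcer1g, at 0.96, and lowest for Fcgr2b with Fcgr3, at 0.46. The sums share libraries and depth, and these values describe 23 points that are not independent.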

How the data were processed

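The authors made 10x Genomics 3′ v3 scRNA-seq libraries of PB leukocytes and deposited the filtered Cell Ranger matrices, which hold raw UMI counts per gene and barcode. The file headers name Cell Ranger 5.0.1, while the submitters' processing notes name 7.1.0 and mm10; whether intronic reads were counted is not given in the sources used here. Deposited totals were 30362408 (naive), 57640396 (D11) and 65861863 (D14) UMIs in 5386, 8536 and 9337 barcodes.

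Kept barcodes had 200 genes or more and no more than 10% of their UMIs from mitochondrial genes. A class needed 3 of its markers. Barcodes that also held 50% of the markers of an unrelated class were left out as mixed (91, 95 and 160), those with over 50% hemoglobin UMIs were erythroid-like (63, 1349 and 1058), and 97, 118 and 113 stayed unassigned. How markers were scored was settled after class sizes were seen. The members and lists were chosen with earlier results of these data known.

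UMIs were summed per class and library. CPM have exact Poisson, ratios exact conditional binomial and shares Clopper-Pearson 95% intervals (Python 3.11.15, scipy 1.17.1). These cover counting error and nothing else. Intervals of single levels can overlap while that of their log2 ratio excludes 0, so overlap does not show equal levels. A count of 0 was given an upper limit of 3 counts. Named genes were the 5 members, the 4 most abundant of each list over the monocyte and neutrophil classes, the largest rise and fall of each list in ncMono-like cells, and the 3 genes most like each member by r. Calls past 1.5-fold used log2(CPM + 1). Pirb, Clec12a, Dok1, Pik3r5, Ptpn11 and Lat2, which that rule does not name, were named after their values were seen. Alternatives were other barcode filters, gates, doublet rules (Scrublet in scanpy 1.11.5), scalings (edgeR 4.0.16 TMM in R 4.3.3, used for factors only), per-cell means, gene minimums and depths of thinning. Those without cells holding markers of another myeloid class were added after the data were seen. Promoters came from RefSeq tables and positions from GENCODE. Procedures were tested on simulated data. One result of the ITAM signalling list in cMono-like cells is not reported here.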

Additional observations from a re-analysis of the deposited data

Results flagged for a closer look

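Fcer1g was flagged because its change over naive had opposite directions in the 2 monocyte classes. At D14 the log2 change was 0.44 in ncMono-like cells and -0.39 in cMono-like cells, and at D11 0.38 and -0.23. Each condition is 1 library, so the difference between the classes was not tested. Without cells that held 3 or more neutrophil markers the D14 values were 0.49 and -0.24.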

How the results depend on the processing

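The main values were computed again under the alternatives. Of 134 alternative values for the counts past 1.5-fold and the balances, 123 stayed the same, 10 moved and 1 turned direction. Of 347 alternative values for single genes and shares, 307 stayed the same, 39 moved and 1 turned. With Fcgr4 alone as the activating receptor, the log2 change of the balance was 1.53 in ncMono-like and 1.61 in cMono-like cells at D14, and it turned to -0.41 in cMono-like cells at D11, by the choice of receptor itself. The cMono-like balance at D14 was 0.60 without cells holding 3 or more neutrophil markers. The number of members past 1.5-fold in ncMono-like cells at D11 was 1 with a minimum of 20 CPM, which lets Fcgr1 in, and at D14 it was 1 with a minimum of 200 CPM. In cMono-like cells at D11 it was 2 with all deposited barcodes, with 500 genes and 5% mitochondrial UMIs, and with a minimum of 20 CPM, and 0 with 200 CPM. In cMono-like cells at D14 it was 1 with 200 CPM. A minimum of 20 CPM raised both D14 counts, as it lets in Fcgr1, lower in ncMono-like cells, and Fcgr4, higher in cMono-like cells. In ncMono-like cells Fcgr1 was above 20 CPM in naive alone. Fcer1g in neutrophil-like cells at D14 turned to 0.012 with TMM factors, which shifted neutrophil-like changes by 0.25 at D14 and 0.21 at D11, and ncMono-like changes by 0.12 and 0.10. The same scaling took the change of Fcgr4 in neutrophil-like cells at D14 from -0.14 to 0.11. Fcgr4 in ncMono-like cells at D14 stayed between 1.55 and 1.76. The balance with Fcgr4 alone was not run in NK-like cells, which held at most 2 Fcgr4 UMIs. Counts were small for NK-like cells, with 15 activating and 21 Fcgr2b UMIs at D14, and for Fcgr1, with 28 UMIs in ncMono-like cells at D14. No paired analysis was possible because each condition has 1 library.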
